A study of Mus musculus with 6 samples.

Results

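The let-7 family of mouse miRNAs was followed in the small RNA of extracellular vesicles (small membrane-enclosed particles shed by cells) of primary mouse hepatocytes. Its members were taken by name: the guide (5p) strands of let-7a, let-7b, let-7c, let-7d, let-7e, let-7f, let-7g, let-7i and miR-98, and let-7j, for which the table has a single strand. All 10 listed names were found among the 1976 miRNA rows of the table. The vesicles, which the labels call exosomes, came from hepatocytes of wild-type C57BL/6J animals. There were 3 control libraries, given palmitic acid at 0 µM, and 3 libraries from cells given 600 µM of this saturated fatty acid. The labels name no vehicle, culture time, age or sex, and nothing in them states that replicates were separate animals or cultures. The p-values here therefore measure only how far these libraries spread, and that spread may be technical.

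A let-7 guide strand is loaded into an Argonaute protein and pairs with target mRNAs mainly through its seed, bases 2 to 8 from the 5′ end. The family was first known as a timing switch of development, is abundant in most differentiated tissues, and represses growth genes such as those of the RAS family and Hmga2. Its maturation is blocked by the RNA-binding protein LIN28, and in metabolic tissues the pair LIN28 and let-7 is known for its effect on insulin signalling.

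The mature sequences are shown because the family differed by member, and the members differ by few bases. They were read from RefSeq on GRCm38.p6, run 5′ to 3′, and carry the seed in capitals. Of the names, 9 share the seed of let-7a.
mmu-let-7a-5p: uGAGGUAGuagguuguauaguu
mmu-let-7b-5p: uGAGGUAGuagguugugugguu
mmu-let-7c-5p: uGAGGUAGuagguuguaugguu
mmu-let-7d-5p: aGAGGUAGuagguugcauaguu
mmu-let-7e-5p: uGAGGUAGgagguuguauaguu
mmu-let-7f-5p: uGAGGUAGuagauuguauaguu
mmu-let-7g-5p: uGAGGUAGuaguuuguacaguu
mmu-let-7i-5p: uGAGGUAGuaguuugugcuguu
mmu-miR-98-5p: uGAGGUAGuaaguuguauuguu
The 10th, let-7j, has another base at the end of the seed and 2 extra bases at its 3′ end.
mmu-let-7j: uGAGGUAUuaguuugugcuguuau
Against let-7a, counted from base 1 at its 5′ end, the substitutions are A19G in let-7c, A17G and A19G in let-7b, U1A and U16C in let-7d, U9G in let-7e, G12A in let-7f, G12U and U18C in let-7g, and G11A and A19U in miR-98. let-7i carries G12U, A17G, U18C and A19U. let-7j differs from let-7i by G8U and the 2 added bases. Reads of such near-identical members may have been split between rows by the counting, whose rule is not given in the sources used here, so single members are uncertain to that extent, whereas the family sum is not affected by a split among its rows.

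The family took a larger share of the palmitic acid libraries. Reads recovered from the deposited values (as described under the processing) for the 10 members together were 2873, 6584 and 5430 in control replicates 1, 2 and 3, against 170091, 188198 and 140194 in palmitic acid replicates 1, 2 and 3. In controls these reads made up 3.02% (from 2.91 to 3.13, an exact 95% Clopper-Pearson interval), 1.001% (0.977 to 1.03) and 2.15% (2.10 to 2.21) of all miRNA reads. With palmitic acid they made up 21.3% (21.2 to 21.4), 24.7% (24.6 to 24.8) and 22.9% (22.7 to 22.96). Such intervals cover only the counting error of reads, not the spread between libraries. For molecules they are too narrow where PCR copies of a molecule are counted as several reads. The groups did not overlap: the means were 2.06% ± 1.01 and 22.9% ± 1.71 (SD, n = 3 each), with an exact two-sided permutation p = 0.1, the smallest that 3 libraries against 3 allow.

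The rest of the library differed as well. miR-122, which dominates the miRNA of hepatocytes, and miR-122b held, over all their arms, 69.2% to 87.7% of control reads and 11.7% to 15.3% of palmitic acid reads. Of the reads other than these, the family held 9.79%, 8.15% and 10.3% in controls against 25.1%, 28.0% and 26.2% with palmitic acid. The groups remained apart on this scale, at 9.42% ± 1.13 and 26.5% ± 1.44 (SD, n = 3, exact permutation p = 0.1). Without let-7j, the one name with another seed, the family held 8.43%, 7.36% and 9.58% of these reads in controls and 13.2%, 17.1% and 17.4% with palmitic acid, again without overlap. In bulk vesicle RNA, more vesicles and more RNA per vesicle cannot be told apart, and a share does not give an amount.

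The make-up of the family differed between the groups. In controls let-7c-5p was the most read member in all 3 libraries and let-7a, let-7b, let-7c and let-7f each held over 10% of the family in every control library, whereas with palmitic acid let-7f-5p and let-7j held most of it. let-7f-5p was 19.98%, 20.99% and 13.1% of family reads in control replicates 1, 2 and 3 against 35.5%, 44.3% and 46.1% with palmitic acid. let-7j was 13.9%, 9.75% and 7.16% in controls against 47.3%, 38.9% and 33.6% with palmitic acid. Within the palmitic acid group, the replicate with the most let-7j thus had the least let-7f-5p.

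let-7c-5p, let-7b-5p and let-7a-5p, main members in controls, were small parts of the family with palmitic acid. The share of let-7c-5p was 20.9%, 31.4% and 29.4% in controls against 0.884%, 1.38% and 1.42% with palmitic acid. That of let-7b-5p was 16.9%, 12.9% and 26.5% in controls against 0.359%, 0.573% and 0.536% with palmitic acid. That of let-7a-5p was 11.8%, 11.98% and 15.2% against 1.24%, 1.88% and 2.35%. In each of these 3 members every control library was above every palmitic acid library.

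The smaller members divided differently. let-7e-5p had a lower share (0.754% ± 0.507 in controls, 0.0916% ± 0.0252 with palmitic acid, SD, n = 3), also without overlap. The shares of let-7d-5p (1.08% ± 0.636 and 0.381% ± 0.108), let-7g-5p (7.38% ± 0.949 and 7.32% ± 1.94) and let-7i-5p (3.44% ± 2.82 and 6.48% ± 0.799) overlapped between the groups. miR-98-5p was 0.0358% ± 0.0494 in controls against 0.260% ± 0.0156 with palmitic acid. In all, 7 of 10 shares did not overlap, 3 higher and 4 lower with palmitic acid. Shares of a family add up to its total, so these are not 7 separate facts. Members a to e together held 52.0%, 58.3% and 72.2% of the family in controls and 2.80%, 4.37% and 4.86% with palmitic acid.

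**Figure D1:**
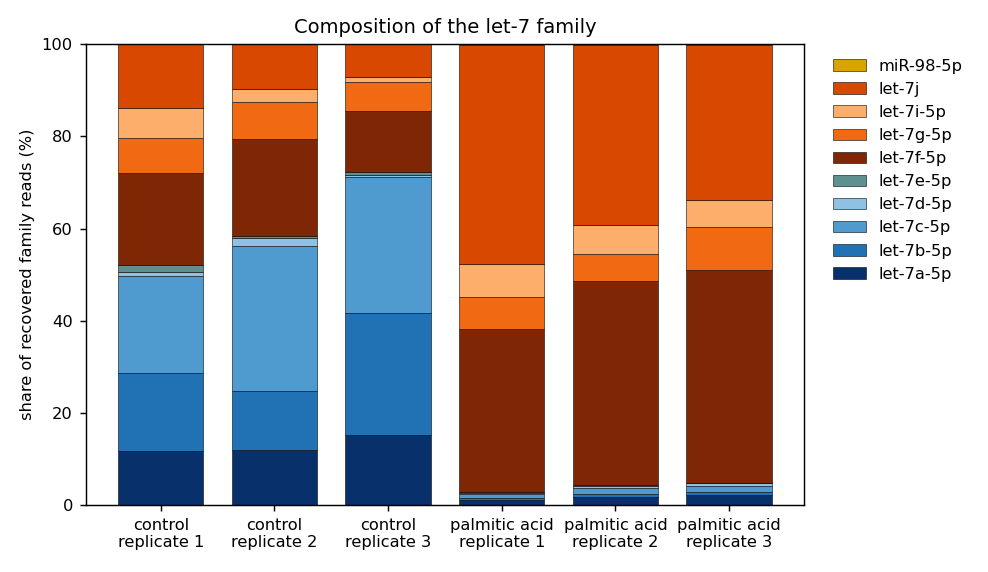
Stacked bars of each member's share of the recovered family reads (vertical axis, percent) in each of the 6 libraries, with let-7a to let-7e in blue and grey-green tones at the bottom and the other members in brown, orange and yellow. The bottom 5 members fill 52.0% to 72.2% of the control bars and 2.80% to 4.86% of the palmitic acid bars.

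Each member was then tested on the deposited log2(adjusted count + 1) values with limma, together with all 181 miRNAs that reached an adjusted count of 10 in 3 or more libraries. Of the 10 members, 5 rose, 2 fell and 3 passed in neither direction (Benjamini-Hochberg adjusted p below 0.05). Over all tested miRNAs 42% were called higher and 14.4% lower, so the number of members called in each direction is near the background. On this scale the median difference of the members, 1.94, equals that of all tested miRNAs, also 1.94. Scaled to reads other than miR-122 these medians were 0.80 and 1.26, and centred on the median miRNA both were 1.15. Of the members, 9 reached an adjusted count of 10 in every control library, whereas miR-98-5p passed the filter through the palmitic acid libraries, so that it had to differ.

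let-7j, named as a let-7 but with its own seed, showed the largest rise of the members read in every library. Its deposited log2 values were 10.27, 10.77 and 9.72 in control replicates 1, 2 and 3 against 15.26, 14.64 and 14.77 in palmitic acid replicates 1, 2 and 3. They rest on 398, 642 and 389 control reads and on 80537, 73268 and 47138 reads with palmitic acid. The 2 groups were far apart, and the limma difference was 4.64 (SE 0.43, adjusted p = 5.1e-05), 24.96-fold on the log2(adjusted count + 1) scale. As let-7i-5p differs from let-7j only by G8U and the 2 added bases, the counting may have moved reads between these rows.

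let-7f-5p, the most read guide strand with the family seed in the palmitic acid libraries, had log2 values of 10.80, 11.87 and 10.59 in controls against 14.85, 14.83 and 15.23 with palmitic acid. The reads were 574, 1382 and 714 against 60320, 83408 and 64617. It ranked 11, 9 and 15 among all miRNAs by reads in the control libraries and 5, 3 and 4 in the palmitic acid libraries. It rose by 3.88 (SE 0.47, adjusted p = 2.5e-04), 14.7-fold, and the groups did not overlap.

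let-7i-5p, the closest relative of let-7j by sequence, had the widest spread among the controls of the members that rose and were read in every library. Its log2 values were 9.19, 8.94 and 6.93 in controls, from 188, 180 and 56 reads, and 12.57, 12.04 and 12.22 with palmitic acid, from 12435, 12073 and 8014 reads. Control replicate 3 was the low one. It rose by 3.92 (SE 0.60, adjusted p = 9.0e-04), 15.2-fold.

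let-7g-5p rose least of the 5. Its log2 values were 9.41, 10.52 and 9.54 in controls (219, 539 and 344 reads) and 12.47, 11.87 and 12.94 with palmitic acid (11595, 10710 and 13266 reads). All palmitic acid libraries were above all controls, by 2.61 in the means (SE 0.46, adjusted p = 0.00176), 6.08-fold. Relative to the median difference of all tested miRNAs it stood at 0.67 and did not pass (adjusted p = 0.251), and its share of the family overlapped between the groups, as given above.

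miR-98-5p, encoded beside a let-7f hairpin on the X chromosome, was the rarest member in controls. It had 0, 1 and 5 reads in control replicates 1, 2 and 3 against 439, 519 and 343 with palmitic acid. With 3 reads taken as the most that a count of 0 allows, its share of the family in control replicate 1 was up to 0.104%. The log2 values were 0.46, 2.02 and 3.59 against 7.75, 7.51 and 7.68, and the difference of 5.62 (SE 0.998, adjusted p = 0.00182) depends on the value that the adjustment gave to 0 and 1 read.

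The members that fell were let-7b-5p and let-7c-5p, which differ from each other by A17G. let-7b-5p had log2 values of 10.56, 11.17 and 11.60 in controls against 8.22, 8.56 and 8.80 with palmitic acid, from 486, 847 and 1441 reads against 610, 1079 and 751. It fell by 2.58 (SE 0.40, adjusted p = 9.0e-04), to a level 5.98-fold lower on the same scale. The read numbers of the groups overlapped although the log2 values did not. Depth was not higher in every palmitic acid library. Control replicate 2 held 657793 reads in total and palmitic acid replicate 3 held 613439. As a part of all reads of a library let-7b-5p overlapped too, with control replicate 2 below palmitic acid replicate 2. The deposited values rest on fitted library factors that did not follow the read totals, as described under the processing.

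let-7c-5p, with 600, 2067 and 1599 control reads against 1504, 2599 and 1984, had log2 values of 10.86, 12.45 and 11.75 in controls against 9.52, 9.83 and 10.20 with palmitic acid. It fell by 1.84 (SE 0.47, adjusted p = 0.00985), a level 3.58-fold lower, with no overlap. With library totals as the scale neither fall passed (let-7b-5p at -1.61, adjusted p = 0.0767, and let-7c-5p at -0.86, adjusted p = 0.165), and with no filter on low values let-7c-5p did not pass (adjusted p = 0.0732).

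The other 3 passed in neither direction. let-7a-5p, the member that gives the family its reference sequence here, had log2 values of 10.05, 11.06 and 10.80 in controls against 10.01, 10.27 and 10.93 with palmitic acid, which overlapped. Its reads were 340, 789 and 825 against 2102, 3539 and 3293. The difference was -0.23 (SE 0.42, 95% interval -1.21 to 0.75, adjusted p = 0.665). As a part of reads other than miR-122 it was lower in 3 of 3 palmitic acid libraries, at 11585, 9770 and 15684 RPM (reads scaled to a common library total) in controls and 3106, 5264 and 6164 with palmitic acid, a difference of -1.38 on the log2 scale (limma adjusted p = 0.0165).

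let-7d-5p, which carries U1A, had 30, 114 and 25 reads in controls against 441, 792 and 649 with palmitic acid. Its log2 values of 6.56, 8.28 and 5.79 against 7.76, 8.12 and 8.59 overlapped because of control replicate 2, without which the difference of 1.28 (SE 0.69, adjusted p = 0.140) became 1.98 (adjusted p = 0.0169). let-7e-5p, with 38, 23 and 32 reads in controls against 108, 211 and 139 with palmitic acid, had log2 values of 6.89, 5.99 and 6.13 against 5.75, 6.22 and 6.38. Its difference was -0.22 (SE 0.63, 95% interval -1.69 to 1.24, adjusted p = 0.785). The 95% intervals of all 3 include 0, which does not show that these members were equal in the groups.

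**Figure D2:**
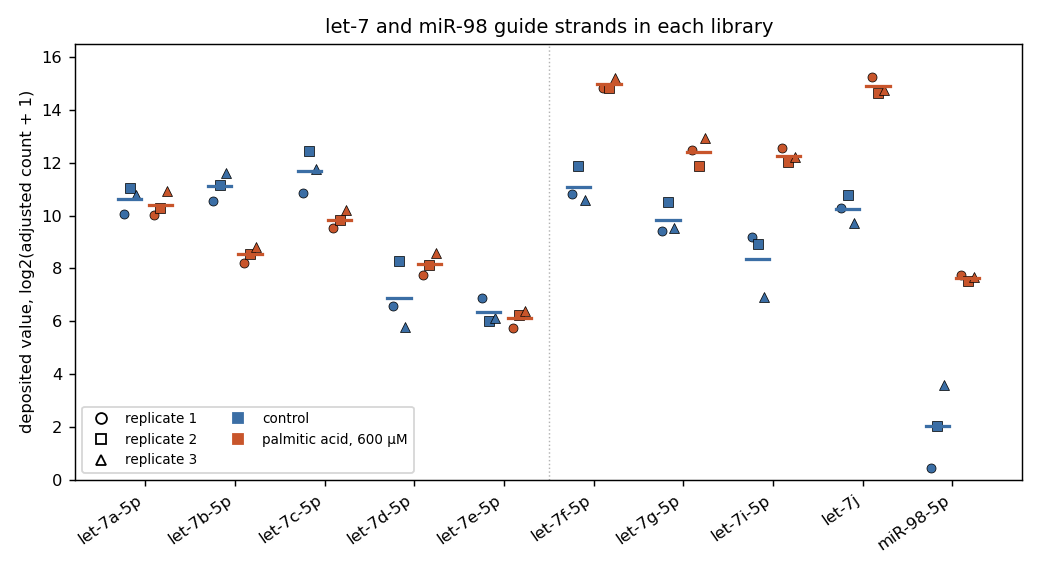
Deposited log2(adjusted count + 1) values (vertical axis) of the 10 members in each library, with control in blue, palmitic acid in orange, marker shapes for replicates and lines for group means. To the right of the dotted line the palmitic acid points of let-7f, let-7g, let-7i, let-7j and miR-98 lie above all control points; to its left those of let-7b and let-7c lie below.

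**Figure D3:**
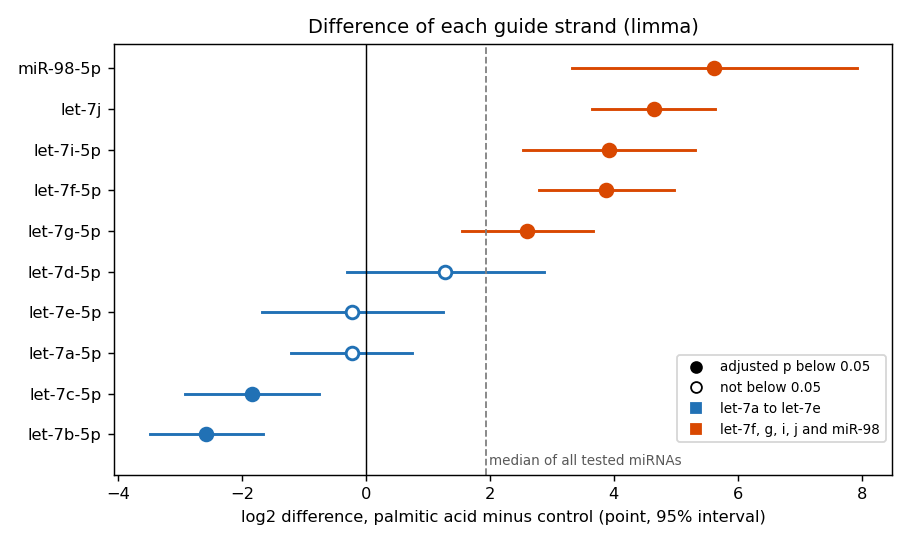
limma differences (palmitic acid minus control, log2, points) with 95% intervals (lines) for the 10 members, filled where the adjusted p is below 0.05; the dashed line is the median of all 181 tested miRNAs at 1.94. The order runs from let-7b-5p at -2.58 to miR-98-5p at 5.62, with let-7a to let-7e below the dashed line and the others above it.

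The members called higher and the others also differ in the middle of the guide strand. The 5 members that rose lack the letters GGUUG, which the other 5 (let-7a to let-7e) carry from base 11 to base 15. let-7f has G12A there, let-7g, let-7i and let-7j have G12U, and miR-98 has G11A. This grouping was made with the values known and carries no test. The median difference was 3.92 over the 5 without these letters, miR-98-5p included, and -0.23 over the 5 with them, with no overlap of the 2 sets (2.61 to 5.62 and -2.58 to 1.28). GGUUG occurs in 3.10% of the 1677 mature sequences that could be matched to rows of the table. Outside the family 4 tested miRNAs hold it, and miR-34a-5p (5.31), miR-3066-5p (4.72) and miR-652-3p (2.95) rose while miR-676-3p fell (-2.85). Over all tested miRNAs 42% were called higher and 14.4% lower, with a median difference of 1.94. Whether the letters go with the differences was not tested. The search was for the letters on the mature strand only.

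Base composition moved with the differences too. Over the 10 members the difference was lower with higher GC content (Pearson r = -0.78, Spearman rho = -0.72), and over the 161 tested miRNAs with a mature sequence the correlation was -0.38 (Spearman rho -0.39). These are descriptions across miRNAs of the same 6 libraries, which share sequence and depth and are not replicates. At a GC content of 36.4%, let-7a-5p was at -0.23 and let-7g-5p at 2.61. At 40.9%, let-7c-5p was at -1.84, let-7e-5p at -0.22, let-7d-5p at 1.28 and let-7i-5p at 3.92. After a linear GC trend over all tested miRNAs was removed from each library, 5 members were higher and 3 lower, let-7a-5p being the added one (-1.35, adjusted p = 0.0288), against 46% and 13% of the 161 miRNAs in that fit. The median difference was then 1.05 over the members and 1.93 over the 161. Beyond this fit, the part of base composition in the difference between members was not tested.

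Ratios between members of the same library do not depend on how the library was scaled. let-7f-5p was read less than let-7c-5p in all 3 controls, nearly equally in replicate 1, with 0.957, 0.669 and 0.447 let-7f reads per let-7c read. With palmitic acid the ratio was 40.1, 32.1 and 32.6. The log2 ratio was -0.60 ± 0.55 and 5.12 ± 0.18 (SD, n = 3, exact two-sided permutation p = 0.1), a difference of 5.72. let-7f and let-7a differ by G12A alone, and their ratio was 1.69, 1.75 and 0.865 in controls against 28.7, 23.6 and 19.6 with palmitic acid. In both pairs every palmitic acid library was above every control.

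Pairs on the same side of the split differed less or overlapped, but the sides were set with these values known. The contrast with the let-7f pairs thus follows from that choice. The log2 ratio of let-7b to let-7c was -0.30, -1.29 and -0.15 in controls against -1.30, -1.27 and -1.40 with palmitic acid. let-7j reads per let-7i read were 2.12, 3.57 and 6.95 in controls against 6.48, 6.07 and 5.88 with palmitic acid. The palmitic acid values of the latter ratio lay within the range of the controls. Ratios of let-7i to let-7g and of miR-98 to let-7f overlapped as well. Of the same-side pairs compared, 2 did not overlap. The log2 ratio of let-7a to let-7c was -0.82, -1.39 and -0.95 in controls against 0.48, 0.45 and 0.73 with palmitic acid. That of let-7d to let-7a was -3.48, -2.79 and -5.02 in controls against -2.25, -2.16 and -2.34.

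**Figure D4:**
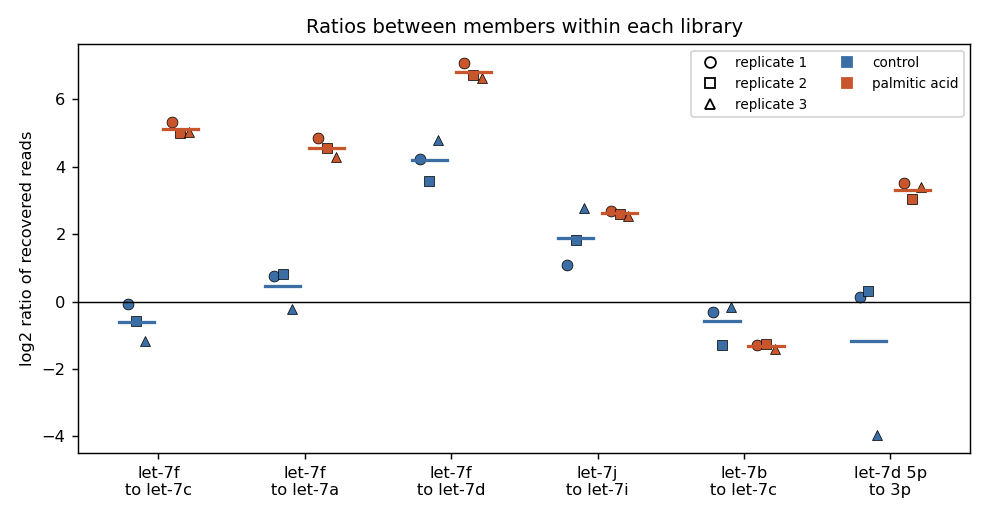
log2 ratios of recovered reads (vertical axis, 0.5 added to each number) of pairs of members, and of the 5p to the 3p arm of let-7d, in each library; blue is control, orange palmitic acid, lines are group means. The let-7f ratios to let-7c, let-7a and let-7d and the let-7d arm ratio do not overlap between the groups, whereas let-7j to let-7i and let-7b to let-7c do.

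Members encoded side by side were not always called alike. On GRCm38 chromosome 13 (minus strand) the hairpins Mirlet7a-1 (48538179 to 48538272), Mirlet7f-1 (48537829 to 48537917) and Mirlet7d (48536012 to 48536114) lie in exons of the long non-coding RNA 6720427I07Rik, with 261 and 1714 bases between them. let-7d-5p has no other hairpin, and the ratio of let-7f-5p to let-7d-5p reads was 19.1, 12.1 and 28.6 in controls against 137, 105 and 99.6 with palmitic acid, without overlap. let-7a, let-7f and let-7c each have 2 hairpins. The others of let-7a and let-7f are Mirlet7a-2 on chromosome 9 (41536716 to 41536811, plus strand, in introns of 3110039I08Rik and Gm49317) and Mirlet7f-2 on chromosome X (151912346 to 151912428, plus strand, in an intron of Huwe1). The mature reads of these 3 cannot be assigned to a hairpin.

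In other places neighbours were called in the same direction. Mir98 (chromosome X, 151913214 to 151913321) lies 785 bases from Mirlet7f-2 in an intron of Huwe1, a ubiquitin ligase gene, and both mature forms rose. miR-98-5p passed the filter through the palmitic acid libraries, so that it had to differ. Reads of let-7f-5p may also come from Mirlet7f-1. This pair therefore does not show that neighbours went together. Mirlet7c-2 (chromosome 15, 85706603 to 85706697) and Mirlet7b (85707319 to 85707403) lie 621 bases apart in exons of Lncppara, plus strand, and let-7c-5p and let-7b-5p fell. The single hairpins of the others are Mirlet7g in an intron of Wdr82 (chromosome 9, 106178840 to 106178927, plus strand), Mirlet7i in an exon of the pseudogene D630033A02Rik (chromosome 10, 122985640 to 122985724, minus strand), and Mir7j, the hairpin of let-7j, outside annotated host genes (chromosome 3, 140028249 to 140028370, plus strand).

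Hairpins of miR-99, miR-100 and miR-125 are encoded beside let-7a-2, let-7c-1 and let-7e. Of their 5 listed guide strands, 4 fell and 0 rose, where 14.4% of all tested miRNAs were called lower and 42% higher. Their median was -2.56 against 1.94 over all tested miRNAs. miR-99a-5p, 656 bases from Mirlet7c-1 (chromosome 16, 77599657 to 77599750, in an intron of Mir99ahg), fell by 1.79 (SE 0.40, adjusted p = 0.00561), close to the fall of let-7c-5p. miR-100-5p, whose hairpin shares a strand of chromosome 9 with Mirlet7a-2 at a distance of 5211 bases, fell by 2.76 (SE 0.50, adjusted p = 0.00204). miR-125b-5p fell by 3.04 (SE 0.67, adjusted p = 0.00502). miR-125a-5p, 367 bases from Mirlet7e (chromosome 17, 17830352 to 17830444, in an intron of Spaca6), fell by 2.56 (SE 0.88, adjusted p = 0.0374), a call lost without control replicate 2 (adjusted p = 0.0891) or 3 (0.0897, at -1.67) and without palmitic acid replicate 1 (0.0889), 2 (0.0822) or 3 (0.0958). miR-99b-5p did not pass, with a difference of -1.27 (adjusted p = 0.0815). Without control replicate 2 it was -1.77 (adjusted p = 0.0169), and with the GC trend removed its sign turned, to 0.28. The count depended on the scale: with library totals none of the 5 passed, whereas all 5 were called lower with totals without miR-122, upper-quartile scaling, centring on the median miRNA and relative to the median difference.

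Passenger (3p) strands, the arm that is mostly degraded after the duplex opens, were rare except for let-7d-3p. Of 12 in the table, 11 had a read and 2 passed the filter on low values, of which let-7d-3p fell and let-7f-1-3p (-0.47, adjusted p = 0.625) did not pass. let-7d-3p had 27, 91 and 394 reads in controls against 38, 95 and 61 with palmitic acid, and log2 values of 6.41, 7.95 and 9.73 against 4.28, 5.09 and 5.21. It fell by 3.17 (SE 0.90, adjusted p = 0.0161), a call that was lost with library totals (adjusted p = 0.124) or no filter (0.0835). Its guide strand was at 1.28 and passed in neither direction, as given above. In controls the 2 arms of let-7d were read about equally or the 3p arm more, with log2 ratios of 5p to 3p reads of 0.15, 0.32 and -3.95, whereas with palmitic acid the 5p arm led by 3.52, 3.05 and 3.40.

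let-7d-3p made up 93.1%, 88.3% and 94.9% of passenger reads of the family in controls and 21.6%, 48.5% and 55.0% with palmitic acid. let-7b-3p (0, 0 and 7 reads against 24, 12 and 9), let-7c-2-3p (0, 0 and 4 against 11, 20 and 13) and let-7a-1-3p (1, 1 and 4 against 16, 15 and 8) had few reads in every library. let-7e-3p had 0, 4 and 0 against 1, 2 and 0, let-7f-2-3p 0, 0 and 1 against 14, 1 and 2, and let-7c-1-3p a single read in palmitic acid replicate 2. let-7a-2-3p had none.

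let-7g-3p, let-7i-3p and miR-98-3p, the passengers of 3 members that rose, had no control read and 47, 8 and 31 reads over the palmitic acid libraries. A difference in arm use was not detectable at the depth of the controls. The 47 let-7g-3p reads were 0.132% of let-7g-5p reads, while 0 reads beside 1102 control let-7g-5p reads allow up to 0.272%. For let-7i-3p the values were 0.0246% and up to 0.708%.

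A pair of further mouse miRNAs carries the seed of let-7a without being in the list. let-7k had 0, 0 and 2 reads in controls against 4, 4 and 7 with palmitic acid, and miR-1961 had 0, 0 and 0 against 10, 5 and 5. Both were below the filter, so the family seed was carried almost wholly by the 9 listed names.

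The miRNAs whose log2 values ran most like the log2 family total over the 6 libraries, outside these lists, were miR-1839-5p (Pearson r = 0.995), miR-30c-5p (0.991) and miR-21a-5p (0.989). They rose by 4.89, 2.95 and 3.89. The difference between the groups makes up most of each such r, which is a description over 6 libraries.

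The number of members called lower depended on the scale. On the deposited scale the median tested miRNA was 1.94 higher with palmitic acid. It was 3.14 higher with library totals and 1.26 higher with totals without miR-122. Relative to that median, 4 members were higher and 4 lower (over all tested miRNAs 26.5% and 32.6%), with let-7a-5p (-2.17) and let-7e-5p (-2.16) among the lower. Scaled to the reads other than miR-122, 5 were higher and 3 lower (background 31.5% and 21.5%). Scaled to all reads of a library, 6 were higher and 0 lower (background 48.1% and 4.42%), the sixth being let-7d-5p (2.27, adjusted p = 0.0335). Under each of these scalings, the 5 members that rose stood above 0. They also stood above let-7a to let-7e. Such scalings shift the members of a library nearly alike, so this order could hardly change. On the deposited values 7 of the 10 members had groups that do not overlap, 5 higher and 2 lower, against 48.6% and 19.3% of all tested miRNAs.

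**Figure D5:**
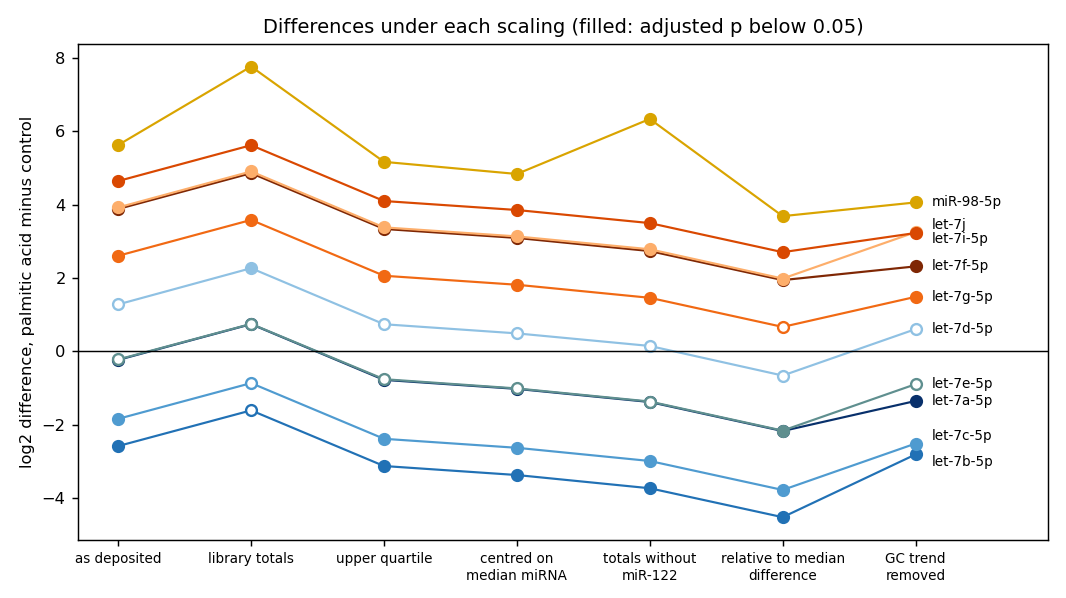
limma difference of each member (palmitic acid minus control, log2, vertical axis) under 7 scalings (horizontal axis), filled where the adjusted p is below 0.05. The lines run from 6 higher and 0 lower with library totals to 4 and 4 relative to the median difference. miR-98-5p, with 0 to 5 control reads, shifts differently from the others, for example to 6.33 with totals without miR-122.

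Controls held 95261 to 657793 recovered reads and palmitic acid libraries 613439 to 799007. Hepatocyte miRNAs (miR-122-5p, miR-192-5p, miR-194-5p, miR-148a-3p and miR-101a-3p, all read) made up 63.8% to 82.5% of control reads and 32.0% to 47.0% with palmitic acid, and of the 5 tested 2 rose and 1 fell (over all tested miRNAs 42% and 14.4%). Of reads other than miR-122 they made up 22.9% to 67.5% in controls and 25.6% to 41.6% with palmitic acid, which overlap. Endothelial (2 listed), immune (5), stellate cell and fibroblast (4) and erythroid (3) miRNAs made up 0.0865% to 0.342%, 0.0178% to 0.162%, 0.0157% to 0.215% and 0.00380% to 0.570% of control reads. With palmitic acid these were 0.374% to 0.496%, 0.0202% to 0.0396%, 0.0463% to 0.0599% and 0.00245% to 0.0160%, of which only the endothelial share did not overlap with controls. Of reads other than miR-122 all 4 lists were lower with palmitic acid without overlap. The endothelial share, which was higher of all reads, was then 0.705% to 1.64% in controls and 0.442% to 0.562% with palmitic acid. The immune share was 0.0856% to 0.525% and 0.0232% to 0.0449%, the stellate cell and fibroblast share 0.128% to 0.699% and 0.0525% to 0.0708%, and the erythroid share 0.0310% to 1.85% and 0.00281% to 0.0181%. Of the 7 members of these 4 lists that were tested, 1 immune and 1 erythroid miRNA fell and none rose. miR-144-3p had no read in any library, and miR-223-3p, miR-145a-5p and miR-214-3p none in controls. The part of these lists in the let-7 differences was not tested. As a check for duplicate deposits of a library, family reads were compared between replicates, and no pair was alike within read-counting noise, with a chi-square per degree of freedom of 27.2 to 61.5 between controls and 266 to 838 between palmitic acid libraries.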

How the data were processed

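Small RNA libraries were made with a NEBNext small RNA kit from Trizol-extracted vesicle RNA, per the labels' protocols. Bowtie2, bedtools, GRCm38 and mm10 are named, without roles or versions, per the submitters' processing notes; the sources used here do not give the counting rule. Although the table's name speaks of raw counts, the values the authors deposited are log2(adjusted count + 1), as judged from the values themselves. They fit quantile mapping between negative binomial distributions (dispersion 1.39) brought to a common library factor, a step no label states. Libraries not analysed here may have entered it. It was inverted to recover reads: 99.8% of 1936 values came out whole within 0.0015 on the log2 scale. Only values where 1 read moves the log2 value by 0.02 or more were checked, so large read numbers were not. The mean of each row was itself fitted to whole reads. Large read numbers are uncertain by about 0.0347% from rounding, which leaves out error in the fitted factors and dispersion. One read was worth 5.64 times more in controls than with palmitic acid, so low control values are less precise. The fitted library factors did not follow the read totals: control replicates 1 and 2 had 0.322 and 0.369 with 95261 and 657793 reads. Shares and ratios use recovered reads, differences the deposited values.

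A group term was fitted with limma 3.58.1 in R 4.3.3, using a mean-variance trend, to 181 miRNAs with an adjusted count of 10 or more in 3 or more libraries, with Benjamini-Hochberg adjustment at 0.05; scripts were tested on simulated data. All tests are two-sided. Members and lists were chosen with earlier results of these data known. The text names all members, passenger strands with a read, cluster neighbours, miRNAs with the same seed and the 3 with the most similar pattern; markers and miRNAs holding GGUUG were added. Sequences are from RefSeq (GRCm38.p6; 1677 of 1976 rows matched, all 10 members), hosts from GENCODE M21.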

Additional observations from a re-analysis of the deposited data

How the results depend on the processing

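The rises of let-7f-5p, let-7i-5p and let-7j kept their direction and passed under all 18 alternatives, with limma adjusted p-values of 4.3e-05 to 0.00864, 1.4e-08 to 0.022 and 1.2e-06 to 0.00388. The range of 5.4e-04 to 0.0335 for miR-98-5p says nothing about stability, since it passed the filter through the palmitic acid libraries. Counts of members were more sensitive to scale. With library totals 0 members, 0 passenger strands and 0 cluster neighbours were lower, against 4.42% of all tested miRNAs. Relative to the median difference of all tested miRNAs, 4 members and 2 passenger strands were lower, against 32.6% of all tested. With no filter on low values 1 member and 0 passenger strands were lower and 2 passenger strands higher. Of the 1058 miRNAs in that fit 88 were higher and 60 lower. The 2 passenger strands called higher had too few reads to pass the filter. Differences that changed sign were, with library totals, those of let-7a-5p (0.74), let-7e-5p (0.75) and let-7f-1-3p (0.48); relative to the median, that of let-7d-5p (-0.66); and with the GC trend removed, with or without the replicate block, that of miR-99b-5p (0.28). None of these 5 passed on the deposited scale. The cause was not tested. Restricted to the 9 members with the let-7a seed, the family share of reads was 11.99 points higher with palmitic acid, against 20.9 with all 10; let-7j was left out by construction. Without let-7j the family share of let-7g-5p was 3.93 points higher, against -0.058 with all members.

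Leaving out 1 library at a time gave 5 to 6 members higher, 2 lower, 3 to 4 neighbours lower, 1 passenger strand lower, and 7 to 8 member shares without overlap. Of all 181 tested miRNAs these fits called 63 to 85 higher and 20 to 32 lower. The family share differed by 20.0146 to 21.7 points of all reads and by 16.3 to 17.7 points of reads other than miR-122, and the log2 ratio of let-7f to let-7c by 5.44 to 5.99. The difference of let-7e-5p ran from -0.39 to 0.0555 and the family share of let-7g-5p from -1.13 to 0.76 points, both through 0. With the replicate number as a block 5 members were higher and 2 lower, against 83 and 28 of all 181 tested miRNAs. The block changed no call of a member. The numbers do not mark a known pairing: deviations of libraries numbered 1, 2 and 3 correlated by 0.209, 0.151 and 0.0383, and control replicate 3 correlated best with palmitic acid replicate 2. Control depth limits the rare members most, since miR-98-5p rests on 0 to 5 control reads and let-7e-5p on 23 to 38.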
